A study of Mus musculus with 6 samples.

Results

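The genes described here are the 10 mouse genes that build, regulate and load MHC class II molecules, H2-Aa, H2-Ab1, H2-Eb1, Cd74, Ciita, H2-DMa, H2-DMb1, H2-DMb2, H2-Oa and H2-Ob. They were chosen by symbol from 55421 genes in the count table. All 10 were found, and all 10 were among the 14469 genes that passed the filter on low counts. RNA had been sequenced from tumor-associated macrophages (TAMs), the macrophages that infiltrate a tumor, in 3 libraries of Pdcd1f/f mice and 3 libraries of Pdcd1f/fLysMcre mice. Both groups carried the floxed Pdcd1 gene, which encodes the inhibitory receptor PD-1, and both were implanted with the same mouse fibrosarcoma line, MC17-51, given as M17 in the labels. Only Pdcd1f/fLysMcre mice also carried Cre recombinase under the lysozyme promoter, which is active in macrophages, monocytes and neutrophils, so other cells of the host kept PD-1. TAMs were collected at day 15 and sorted as live CD45+CD11b+F4/80+Ly6G- cells. The labels used here do not give the age of the mice, for which the methods state a range at tumor implantation. The labels also do not say whether a library pooled several mice, so the p-values measure only the spread between these libraries. The comparison asks how the class II machinery of TAMs differed when myeloid cells carried Cre and could delete PD-1.

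MHC class II molecules display peptides from engulfed proteins to CD4+ T cells. An alpha and a beta chain (H2-Aa and H2-Ab1 for I-A, H2-Eb1 for the beta chain of I-E) assemble with the invariant chain Cd74, which blocks the groove until proteases of the lysosome cut it down to a short fragment. H2-DM, a pair of H2-DMa with H2-DMb1 or H2-DMb2, removes that fragment and edits the peptides, and H2-DO, a pair of H2-Oa and H2-Ob, restrains H2-DM. Ciita, the class II transactivator, binds no DNA itself and is recruited by the RFX, CREB and NF-Y factors that sit on the X, X2 and Y boxes upstream of these genes. In macrophages Ciita is induced by interferon-gamma, with IRF1 acting on its promoter.

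On GRCm38, 8 of the 10 genes lay within 224 kb of chromosome 17. In order along the chromosome these were H2-Oa (chr17:34092340-34095234), H2-DMa (chr17:34119541-34139101), H2-DMb2 (chr17:34143307-34151555), H2-DMb1 (chr17:34153072-34160230), H2-Ob (chr17:34238903-34254414), H2-Ab1 (chr17:34257689-34269419), H2-Aa (chr17:34282744-34287823) and H2-Eb1 (chr17:34305867-34316674). H2-Aa was the one gene of the 8 on the minus strand. Ciita lay on chromosome 16 (chr16:10480059-10528418), and Cd74 lay outside the cluster as well. All 10 were annotated as protein coding.

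RefSeq promoter windows on GRCm38.p6, from 250 bases before to 50 bases after the start site, were found for 7 of the 10 genes (8 windows). They were searched on both strands for the letters GNAAC, part of an X box, followed by the Y box letters TGATTGG with 20 to 45 bases from start to start. The letters were chosen after the windows had been read. On the strand of the gene, the windows of 5 members (H2-Aa, H2-Eb1, H2-Ob, H2-Oa and H2-DMb1) held this pair, as did 0.332% of all 32851 RefSeq windows (0.715% on either strand). The stretches of 4 of these members are shown because genes of very unequal level share them. The capitals mark GNAAC and TGATTGG, and the position of each stretch follows below.
H2-Aa: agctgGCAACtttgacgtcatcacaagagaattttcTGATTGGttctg
H2-Eb1: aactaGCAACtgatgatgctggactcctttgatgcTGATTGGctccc
H2-Ob: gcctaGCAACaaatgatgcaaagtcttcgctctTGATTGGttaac
H2-Oa: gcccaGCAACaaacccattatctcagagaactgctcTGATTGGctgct

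These stretches lay at chr17:34287862-34287909 (minus strand), chr17:34305771-34305817, chr17:34238813-34238857 and chr17:34092298-34092345 (plus strand). From the start of GNAAC to the start of TGATTGG there were 31 bases in H2-Aa and H2-Oa, 30 in H2-Eb1 and 28 in H2-Ob, and the Y box letters ended 38 to 54 bases before the start site. In H2-DMb1 the spacing was also 31 bases. The window of H2-DMb2 held TGATTGG without the pair, as 7.82% of all windows held these letters on either strand. Neither of the windows of H2-DMa held the pair or TGATTGG, which says only that these letters are not in those windows. No window was matched for H2-Ab1, Cd74 or Ciita.

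The libraries held between 41833823 and 51417209 counts, and the class II genes took 0.0812% to 0.108% of them. A floor of 3 counts corresponded to 0.0583 to 0.0717 CPM, counts scaled to a common library size. Pdcd1 had 10, 12 and 15 counts in Pdcd1f/f and 7, 16 and 11 in Pdcd1f/fLysMcre, too few to check the deletion. Lyz2, the lysozyme gene into which this Cre is inserted, averaged 216860 normalized counts in Pdcd1f/f and 427 in Pdcd1f/fLysMcre, so the libraries followed their labels. Lyz1 averaged 156 and 3625. No library carried Cre without the floxed Pdcd1 gene. Cre, the values of Lyz2 and Lyz1 and the deletion of PD-1 therefore cannot be told apart. Summed Y-linked transcripts were 1545 to 1914 normalized counts in Pdcd1f/f and 6267 to 7233 in Pdcd1f/fLysMcre, and Xist, transcribed in female cells, was at 17318 to 26511 and 8530 to 13137. Every library thus held transcripts of both sexes, in proportions that differed between the genotypes, although the methods state that males and females were used equally, and the mix of sexes and the genotype cannot be told apart. Pdcd1f/f replicate 1 and Pdcd1f/fLysMcre replicate 2 stood apart from the others: their genes deviated from the genotype mean in inverse order of GC content (Spearman rho of -0.799 and -0.741 across 9828 genes, which are not independent), while in the other 4 libraries rho was 0.2 to 0.763.

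The sorted cells carried the transcripts of macrophages in every library. The colony-stimulating factor receptor Csf1r had 53373 to 66734 counts and Adgre1, which encodes F4/80, had 24852 to 33283. Transcripts that define B cells, the other abundant class II-positive lineage, were mostly at or near 0. Pax5, Blk, Cr2 and Fcer2a had 0 counts in all 6 libraries, while Cd79b had 117 to 177 and Ighm 153 to 232.

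Levels per length spanned a wide range. They are given as RPKM, the TMM-scaled CPM divided by the length in kilobases of the longest coding transcript, averaged over the 6 libraries. Cd74 was at 336 RPKM, H2-Aa at 157, H2-Ab1 at 98.4 and H2-Eb1 at 67.1. H2-DMb1 and H2-DMa followed at 15.8 and 14.8, and H2-DMb2 at 1.66. Ciita, H2-Oa and H2-Ob were lowest at 0.367, 0.327 and 0.288. The invariant chain and the I-A chains therefore stood far above the DM chains, and the DO chains and the transactivator stood lowest.

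**Figure D1:**
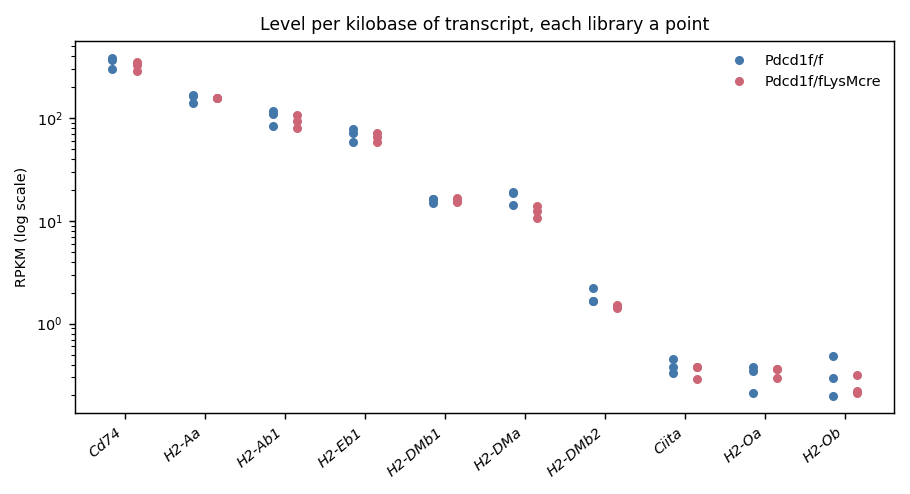
Level of each class II gene in RPKM on a log axis, 1 point per library, Pdcd1f/f in blue and Pdcd1f/fLysMcre in red, ordered by the mean of 6 libraries. Cd74 leads at a mean of 336 RPKM and H2-Ob is last at 0.288. Blue and red points do not overlap for H2-DMa and H2-DMb2, as for 27.5% of all genes tested.

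Not all neighbours in this order were separated. The 6 libraries of H2-DMb1 overlapped those of H2-DMa, those of Ciita overlapped those of H2-Oa, and those of H2-Oa overlapped those of H2-Ob, whereas every other pair of neighbours stood apart. With RLE size factors the order did not change. When the length of all annotated exons was used instead, H2-Eb1 (57.6 RPKM), H2-Aa (46.7) and H2-Ab1 (46.4) followed Cd74 (282) and their libraries overlapped. H2-DMb1 (13.2) then stood apart from H2-DMa (8.61), and H2-Oa (0.253) came before Ciita (0.231) with overlap. The order of the antigen-binding chains and the near-equal levels of H2-DMb1 and H2-DMa thus depend on the length used. H2-Eb1 was transcribed, but its partner H2-Ea-ps, the alpha chain of I-E that is a pseudogene in the C57BL/6 reference, had 0 counts in each Pdcd1f/f library and 3, 0 and 1 in the Pdcd1f/fLysMcre libraries.

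Of the 10 class II genes, 1 was lower in Pdcd1f/fLysMcre TAMs and none was higher at an adjusted p under 0.05 in edgeR's quasi-likelihood test (5.43% of all 14469 genes passed, 2.42% higher and 3.01% lower). The gene was H2-DMa, and 1 of 10 is read only as a count beside that background. The log2 fold changes of 9 of the 10 were below 0, with a median of -0.14. Those of H2-Aa (-0.0041) and H2-DMb1 (-0.0053), counted among the 9, were almost 0. For all genes tested the median was -0.0026 and 50.4% were below 0. Once each library was offset for the length and GC content of its genes, however, 5 of the 10 were below 0 and their median was -0.01. With the offsets and Pdcd1f/f replicate 1 left out, 8 were below 0 and the median was -0.07. With 1 library left out the median ran from -0.21 (without Pdcd1f/f replicate 1 or Pdcd1f/fLysMcre replicate 3) through -0.10 (without Pdcd1f/f replicate 2) and -0.05 (without Pdcd1f/f replicate 3) to -0.04 (without Pdcd1f/fLysMcre replicate 2), with 7 to 9 of the 10 below 0. Two-sided tests were used throughout, and normalized counts are the authors' values, counts divided by 1 size factor per library.

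**Figure D2:**
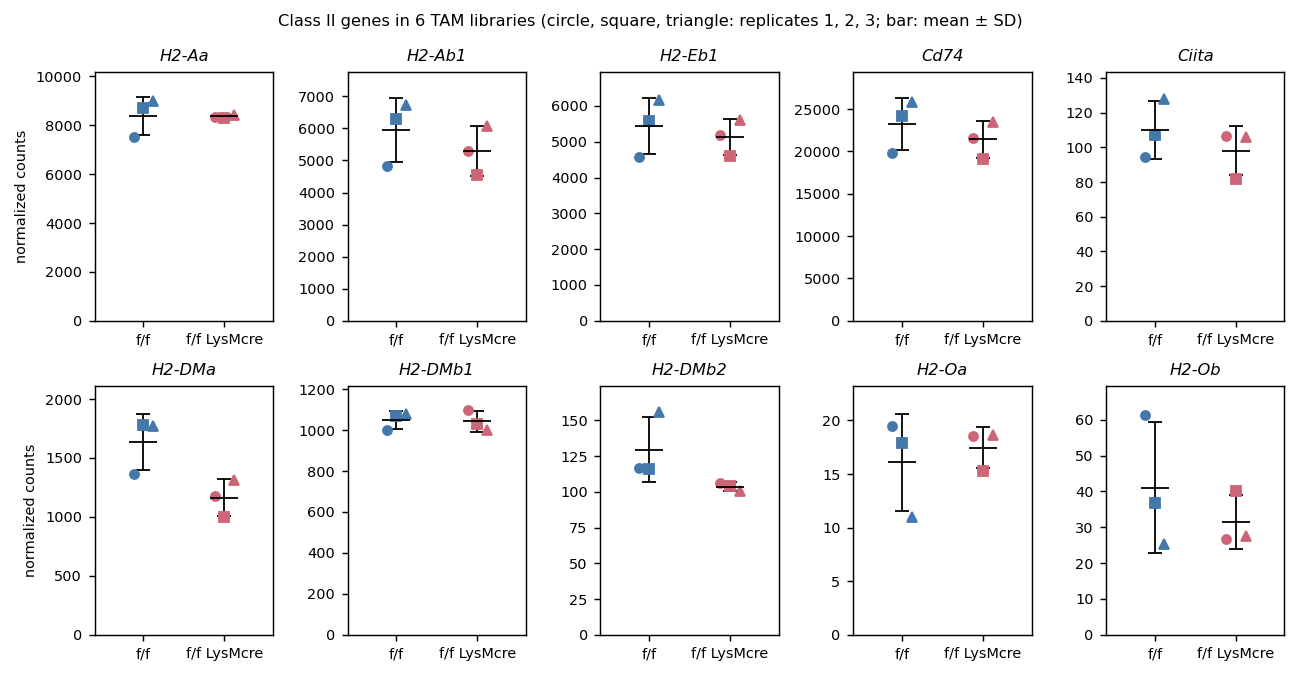
Normalized counts of the 10 class II genes in Pdcd1f/f (blue) and Pdcd1f/fLysMcre (red) libraries, with circle, square and triangle for replicates 1, 2 and 3 and bars for mean ± SD (n = 3). The genotypes do not overlap for H2-DMa and H2-DMb2, as for 27.5% of all genes tested, and overlap for the other 8 genes. Each axis starts at 0.

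H2-DMa encodes the alpha chain of the peptide editor H2-DM. Its normalized counts were 1364, 1780 and 1771 in Pdcd1f/f and 1177, 1002 and 1312 in Pdcd1f/fLysMcre. Every Pdcd1f/fLysMcre library was below every Pdcd1f/f library, a separation toward lower values that 12.8% of all genes also showed, although the lowest Pdcd1f/f and the highest Pdcd1f/fLysMcre library lay close together. The mean was 1638 ± 238 and 1164 ± 155 (SD, n = 3), and in the edgeR fit the level fell by 28.8% (log2 fold change of -0.49, standard error 0.12, 95% interval -0.77 to -0.21, edgeR adjusted p = 0.0483). The adjusted p stood just under the threshold and did not stay there without single libraries. In edgeR it was 0.222 without Pdcd1f/f replicate 2, 0.155 without Pdcd1f/f replicate 3, 0.16 without Pdcd1f/fLysMcre replicate 1 and 0.162 without Pdcd1f/fLysMcre replicate 2, with log2 fold changes of -0.43, -0.43, -0.50 and -0.39. It was 0.00172 without Pdcd1f/f replicate 1 and 0.0387 without Pdcd1f/fLysMcre replicate 3. With offsets for GC content and length the log2 fold change was -0.39 (edgeR adjusted p = 0.00154), so the direction held in all of these fits.

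H2-DMa lies on the strand opposite to Brd2, a bromodomain gene, and the annotated exons of the pair shared 360 bases. Whether reads were counted by strand is not given in the sources used here. For 88 genes inside exons of a gene with at least 5000 counts on the other strand, the median was 2 counts. It was 17587 for the covering genes. Counting by strand and dropping reads shared between genes would each leave such genes with few counts, so these values do not show the setting. The part of reads from Brd2 in the counts of H2-DMa itself was not tested. Brd2 itself did not pass the test (log2 fold change of 0.07, edgeR adjusted p = 0.516).

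The beta chains that pair with H2-DMa gave other values. H2-DMb1 had 999, 1067 and 1081 normalized counts in Pdcd1f/f and 1100, 1030 and 999.9 in Pdcd1f/fLysMcre. These overlapped, and H2-DMb1 had the smallest spread of the 10 members within genotypes (pooled SD of 0.07 on the log2 CPM scale). The means were 1049 ± 44.0 and 1043 ± 51.5 (SD, n = 3), a log2 fold change of -0.01 (edgeR adjusted p = 0.974). The 95% interval of the difference ran from 11.6% lower to 12.3% higher.

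H2-DMb2, the less abundant beta chain, had 117, 116 and 156 normalized counts in Pdcd1f/f and 106, 104 and 100.3 in Pdcd1f/fLysMcre. The genotypes did not overlap, as for 12.8% of all genes toward lower values. Pdcd1f/f replicate 3 lay well above the rest, and all Pdcd1f/fLysMcre libraries lay close together. The log2 fold change of -0.32 (standard error 0.17, 95% interval -0.69 to 0.05) did not pass the test (edgeR adjusted p = 0.265), and it was -0.17 without Pdcd1f/f replicate 3. H2-DMb1 and H2-DMb2 are close paralogs whose reads the counting could have divided unevenly, and with both summed as 1 feature the log2 fold change was -0.04 (edgeR adjusted p = 0.811).

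The balance of the DM chains is also given within each library, as a description that follows from the values of H2-DMa and H2-DMb1 above and is no further evidence for them. H2-DMa over the sum of H2-DMb1 and H2-DMb2, in RPKM, was 0.861, 1.06 and 1.01 in Pdcd1f/f and 0.686, 0.622 and 0.839 in Pdcd1f/fLysMcre. The genotypes did not overlap, but the highest Pdcd1f/fLysMcre ratio nearly reached the lowest Pdcd1f/f ratio. How close the ratio lies to 1 depends on the transcript lengths used. The means were 0.977 ± 0.103 and 0.716 ± 0.111 (SD, n = 3), a log2 difference of -0.45 with an exact permutation p of 0.1, the smallest that 3 libraries against 3 allow, so no ratio could pass the threshold (0.2 after Benjamini-Hochberg adjustment over the 6 ratios compared).

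H2-DMa was also set against the classical alpha chain that its product serves. H2-DMa over H2-Aa was 0.102, 0.115 and 0.111 in Pdcd1f/f and 0.0793, 0.0679 and 0.0877 in Pdcd1f/fLysMcre, a log2 difference of -0.49 (exact permutation p = 0.1, adjusted 0.2). Here too no library of one genotype reached the other. H2-DMb1 over H2-DMb2 was 8.69 ± 1.21 and 10.6 ± 0.243 (SD, n = 3, exact permutation p = 0.1, adjusted 0.2). The other ratios overlapped between the genotypes. Cd74 over H2-Aa plus H2-Ab1 was 1.34 ± 0.0191 and 1.29 ± 0.0599 (SD, n = 3, exact permutation p = 0.3), H2-Aa over H2-Ab1 was 1.53 ± 0.122 and 1.72 ± 0.243 (SD, n = 3, exact permutation p = 0.3), and H2-DMa over H2-Oa was 59.9 ± 25.4 and 36.1 ± 1.83 (SD, n = 3, exact permutation p = 0.2), each at 0.3 after adjustment.

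**Figure D3:**
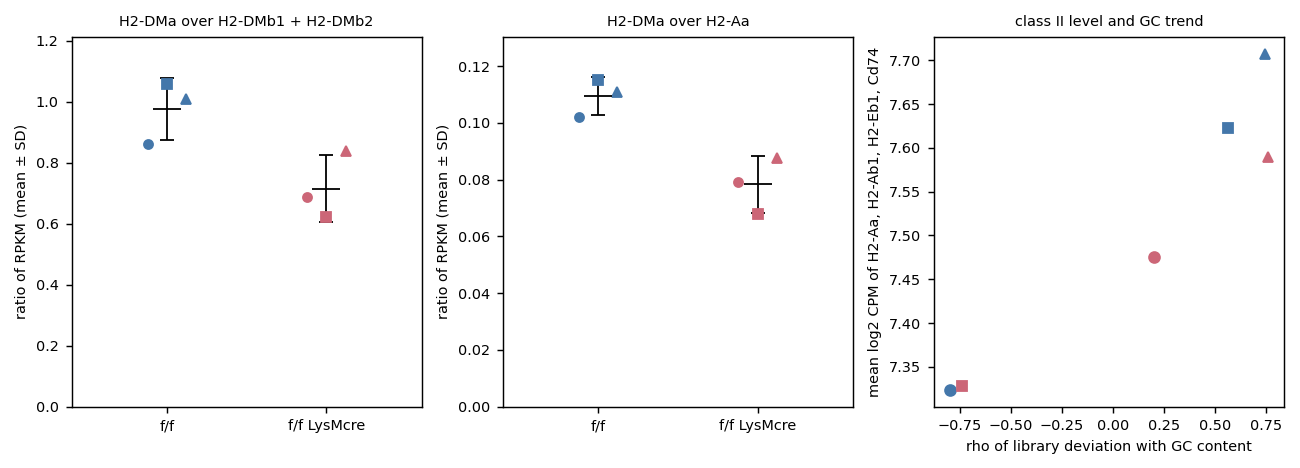
Left and middle: ratio of the RPKM of H2-DMa to the sum of H2-DMb1 and H2-DMb2 and to H2-Aa in each library (Pdcd1f/f blue, Pdcd1f/fLysMcre red, bars mean ± SD, n = 3), with the means of the first ratio at 0.977 and 0.716. Right: mean log2 CPM of H2-Aa, H2-Ab1, H2-Eb1 and Cd74 against the Spearman rho of the library's deviation with GC content, with the replicates as circle, square and triangle, where the libraries with rho of -0.799 and -0.741 sit lowest.

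The chains that carry the peptide showed no difference that passed the test. H2-Aa, the I-A alpha chain, had 7511, 8697 and 8974 normalized counts in Pdcd1f/f and 8349, 8307 and 8417 in Pdcd1f/fLysMcre. All 3 Pdcd1f/fLysMcre libraries lay inside the range of Pdcd1f/f. The means were 8394 ± 778 and 8358 ± 55.8 (SD, n = 3), and the interval of the difference ran from 11.0% lower to 11.7% higher (edgeR adjusted p = 0.979).

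H2-Ab1, the I-A beta chain, had 4840, 6288 and 6720 normalized counts in Pdcd1f/f and 5298, 4531 and 6086 in Pdcd1f/fLysMcre. The lowest library of each genotype was the one that stood apart in GC content. The log2 fold change was -0.16 (95% interval -0.45 to 0.12, edgeR adjusted p = 0.470). Without Pdcd1f/f replicate 1 it was -0.30 and passed the test (edgeR adjusted p = 0.0456), and with offsets for GC content and length it was 0.01 (edgeR adjusted p = 0.951).

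H2-Eb1, the beta chain of I-E, had 4587, 5576 and 6159 normalized counts in Pdcd1f/f and 5188, 4593 and 5618 in Pdcd1f/fLysMcre. These overlapped, again with Pdcd1f/f replicate 1 and Pdcd1f/fLysMcre replicate 2 lowest. The log2 fold change was -0.08 (95% interval -0.32 to 0.16, edgeR adjusted p = 0.680).

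Cd74 (chr18:60803848-60812652), the invariant chain and the most abundant member, had 19835, 24143 and 25827 normalized counts in Pdcd1f/f and 21637, 19112 and 23539 in Pdcd1f/fLysMcre. The same pair of libraries was lowest, and the genotypes overlapped. The means were 23268 ± 3090 and 21430 ± 2221 (SD, n = 3), a log2 fold change of -0.12 (95% interval -0.35 to 0.11, edgeR adjusted p = 0.525) that became 0.03 with the offsets (edgeR adjusted p = 0.673). It was -0.23 without Pdcd1f/f replicate 1 and -0.04 without either Pdcd1f/f replicate 3 or Pdcd1f/fLysMcre replicate 2.

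Ciita, the transactivator of these genes, was measured at a low level, with 94.6, 107 and 128 normalized counts in Pdcd1f/f and 106, 81.9 and 106 in Pdcd1f/fLysMcre. The genotypes overlapped. The log2 fold change of -0.16 had a 95% interval of -0.56 to 0.25 (edgeR adjusted p = 0.631), wide enough to hold the change measured for H2-DMa. It was -0.27 without Pdcd1f/f replicate 1 and -0.04 without either Pdcd1f/f replicate 3 or Pdcd1f/fLysMcre replicate 2. The annotated exons of Ciita shared 329 bases with Dexi on the other strand.

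The chains of the DM inhibitor H2-DO had the fewest counts. H2-Oa had 19.5, 17.9 and 11.0 normalized counts in Pdcd1f/f and 18.5, 15.2 and 18.7 in Pdcd1f/fLysMcre, with Pdcd1f/f replicate 3 lowest and the genotypes overlapping. Its log2 fold change was 0.11 (95% interval -0.68 to 0.90, edgeR adjusted p = 0.878). H2-Ob had 61.2, 36.9 and 25.2 in Pdcd1f/f and 26.8, 40 and 27.5 in Pdcd1f/fLysMcre, with Pdcd1f/f replicate 1 the highest of all 6 and Pdcd1f/fLysMcre replicate 2 the highest of its genotype. Its log2 fold change was -0.40 (95% interval -1.17 to 0.38, edgeR adjusted p = 0.518) and it was 0.01 without Pdcd1f/f replicate 1. The intervals of both DO chains held a change of the size measured for H2-DMa. The exons of H2-Oa shared 321 bases with the antisense gene BC051537.

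The members differed in how they varied between libraries of 1 genotype. The mean log2 CPM of H2-Aa, H2-Ab1, H2-Eb1 and Cd74 was 7.32, 7.62 and 7.71 in Pdcd1f/f and 7.48, 7.33 and 7.59 in Pdcd1f/fLysMcre. Its lowest libraries were Pdcd1f/f replicate 1 and Pdcd1f/fLysMcre replicate 2, the pair with GC rho of -0.799 and -0.741, and they were alike across the genotypes. With the offsets the values were 7.36, 7.53 and 7.61 against 7.52, 7.44 and 7.59, and their range narrowed from 0.38 to 0.25.

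Single members responded to the offsets to different degrees. The pooled SD within genotypes on the log2 CPM scale went from 0.18 to 0.07 for Cd74, from 0.23 to 0.11 for H2-Ab1, from 0.21 to 0.12 for H2-DMa and from 0.21 to 0.13 for Ciita. It stayed at 0.07 for H2-DMb1 and near 0.10 for H2-Aa (0.10 and 0.09). It went from 0.19 to 0.16 for H2-Eb1, from 0.17 to 0.16 for H2-DMb2, from 0.48 to 0.43 for H2-Ob and up from 0.30 to 0.34 for H2-Oa. The GC content of the longest coding transcript was 57.3% in H2-Ab1, 56.6% in Cd74, 56.2% in H2-Oa, 55.2% in Ciita, 55.1% in H2-DMa, 53.8% in H2-DMb1, 52.9% in H2-DMb2, 51.8% in H2-Eb1 and 51.0% in H2-Aa. It was lowest in H2-Ob at 46.0%, whose highest libraries were Pdcd1f/f replicate 1 and Pdcd1f/fLysMcre replicate 2.

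As a description of libraries that differed in depth and in their trend with GC content, likeness to that 4-gene mean was measured. It was taken as Pearson r over the 6 libraries, each core gene against the other 3. It was 0.99 for Cd74 and H2-Eb1, 0.97 for H2-Ab1, 0.90 for Ciita and 0.78 for H2-Aa and H2-DMa. H2-DMb2 (0.55) and H2-DMb1 (0.46) were less alike, and H2-Oa (-0.47) and H2-Ob (-0.73) ran the other way. The 5 non-members most like the profile were Isyna1, Med25, Ndufv1, Adam8 and 2510039O18Rik, with r of 0.997 to 0.999 and a GC content between 54.9% and 61.4%. Among all genes tested, 8.39% had r over 0.9, so a high r in these libraries was common.

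Of the 7 genes for factors that sit on the X and Y boxes, 1 was higher and none lower, with a median log2 fold change of 0.04. Over all genes tested, 2.42% were higher and 3.01% lower. Nfyb, the B subunit of the Y box factor NF-Y, rose from a mean of 1235 to 1548 normalized counts (log2 fold change of 0.33, standard error 0.08, edgeR adjusted p = 0.0435). Its libraries did not overlap between the genotypes, a separation toward higher values that 14.7% of all genes showed. Its partners Nfya (0.06) and Nfyc (0.01), the RFX subunits Rfx5 (-0.09), Rfxap (0.04) and Rfxank (-0.25) and Creb1 (0.16) did not pass, with edgeR adjusted p from 0.258 to 0.956. The call of Nfyb held without Pdcd1f/f replicate 1 and was lost without each of the other 5 libraries (edgeR adjusted p from 0.0752 to 0.227), with library size alone (0.0517) and in limma-trend (0.0504). With the offsets it was at 0.20 (edgeR adjusted p = 0.0248), and at 0.17 with Pdcd1f/f replicate 1 also left out (0.0556).

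**Figure D4:**
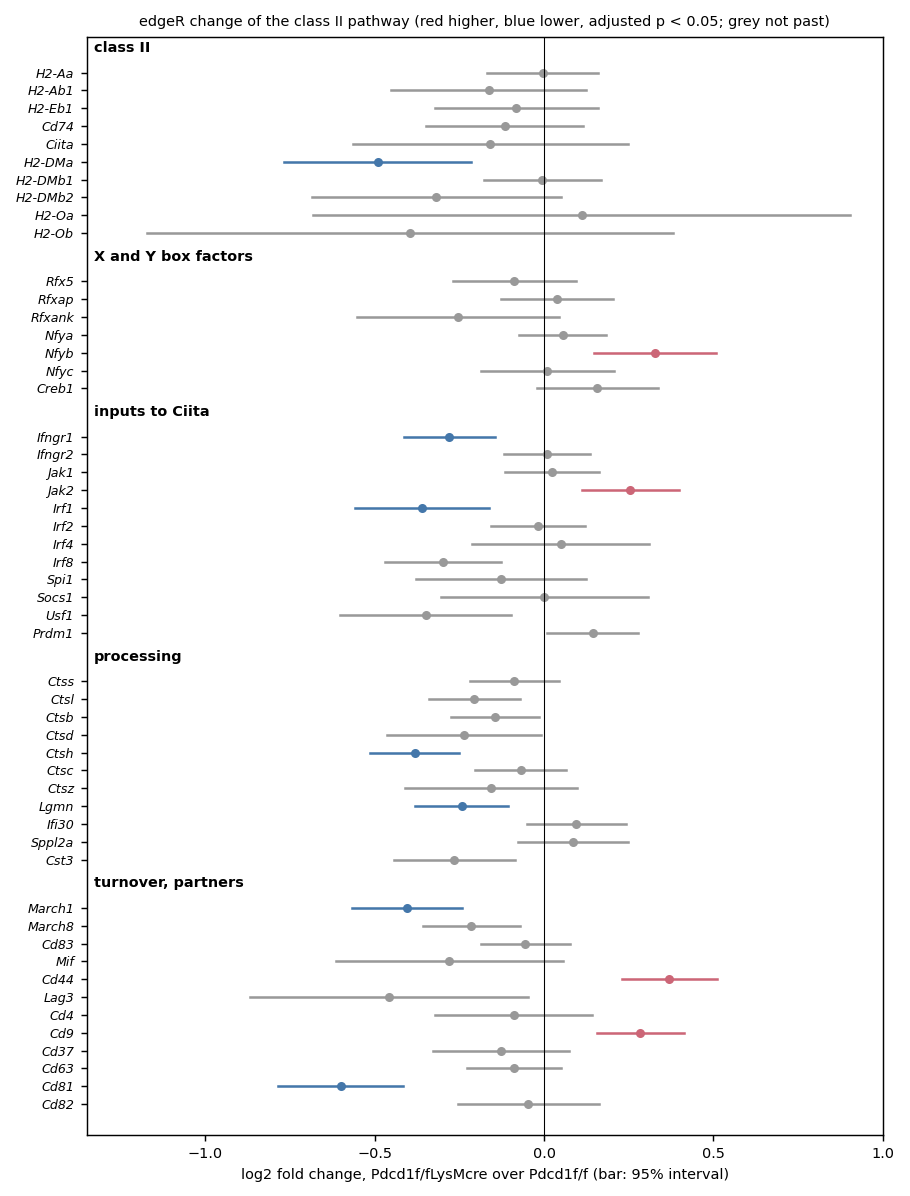
Log2 fold change with its 95% interval (edgeR) for the 10 class II genes and genes of their regulation, processing and turnover, red where higher and blue where lower in Pdcd1f/fLysMcre at an adjusted p under 0.05 and grey otherwise. H2-DMa at -0.49 is the one coloured gene of the class II group, and H2-Oa and H2-Ob have the widest intervals.

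Of the 13 genes that act upstream of Ciita, 1 was higher and 2 were lower, beside 2.42% and 3.01% of all genes tested. Their median log2 fold change was 0.00. Ifngr1, the ligand-binding chain of the interferon-gamma receptor, fell from 12022 to 9889 normalized counts (log2 fold change of -0.28, standard error 0.06, edgeR adjusted p = 0.0253). Irf1, an interferon-induced factor of the Ciita promoter, fell from 2827 to 2200 (-0.36, standard error 0.09, edgeR adjusted p = 0.0446). Jak2, a kinase of the same receptor, rose from 4446 to 5298 (0.25, standard error 0.06, edgeR adjusted p = 0.0485). Each of these 3 separated the genotypes, as 27.5% of all genes tested did in either direction, and each lost its call without some single libraries. The edgeR adjusted p of Ifngr1 was 0.0735 to 0.143 without Pdcd1f/f replicates 2 or 3 or Pdcd1f/fLysMcre replicates 1 or 3, and that of Irf1 was 0.147 to 0.185 without Pdcd1f/f replicates 2 or 3 or Pdcd1f/fLysMcre replicates 1 or 2. That of Jak2 was 0.09 to 0.21 without any library but Pdcd1f/f replicate 1, 0.0512 with RLE size factors, 0.0621 with library size alone and 0.0559 in limma-trend. With the offsets Jak2 was at 0.16 (edgeR adjusted p = 0.00950).

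Irf8, a myeloid interferon regulatory factor, had 3818, 4412 and 4530 normalized counts in Pdcd1f/f and 3368, 3384 and 3605 in Pdcd1f/fLysMcre. The genotypes did not overlap, as for 12.8% of all genes toward lower values. The log2 fold change of Irf8, -0.30, fell just outside the threshold (edgeR adjusted p = 0.0519) and was inside it in 11 of 20 alternative fits. The myeloid factor Spi1 (-0.13, edgeR adjusted p = 0.527) and the feedback inhibitor Socs1 (0.00, edgeR adjusted p = 0.997) did not pass.

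Of 12 tested genes of the wider interferon-gamma response, none was higher and 2 were lower, beside 2.42% and 3.01% of all genes tested. Their median log2 fold change was 0.01. The chemokine Cxcl9 fell from 2052 to 1219 normalized counts (log2 fold change of -0.75, standard error 0.09, edgeR adjusted p = 0.00122), a call that held in all 20 alternatives. The GTPase Iigp1 fell from 951 to 706 (-0.43, standard error 0.09, edgeR adjusted p = 0.0179), with an adjusted p of 0.0568 to 0.0792 without Pdcd1f/f replicate 2 or any 1 of the Pdcd1f/fLysMcre libraries. On the other side, Cd274, which encodes the PD-1 ligand PD-L1 (0.22, edgeR adjusted p = 0.0531), and the chemokine Cxcl10 (0.21, 0.0694), named after their values were seen, were above every Pdcd1f/f library in all 3 Pdcd1f/fLysMcre libraries and did not pass. In this list 3 genes did not overlap toward higher and 3 toward lower values, beside 14.7% and 12.8% of all genes tested.

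Of 11 genes for processing in the lysosome, 2 were lower and none higher, beside 3.01% and 2.42% of all genes tested. The median log2 fold change was -0.16, with 9 of the 11 below 0. In this list 6 genes did not overlap toward lower and 0 toward higher values, beside 12.8% and 14.7% of all genes tested. Ctsh, a cathepsin, fell from 17689 to 13556 normalized counts (-0.38, standard error 0.06, edgeR adjusted p = 0.00511). Lgmn, the asparaginyl endopeptidase, fell from 147490 to 124460 at the edge of the threshold (-0.24, standard error 0.06, edgeR adjusted p = 0.0498). Ctsh lost its call without Pdcd1f/fLysMcre replicate 1 (edgeR adjusted p = 0.0582), and Lgmn without any library but Pdcd1f/f replicate 1 (0.0843 to 0.257). Ctss, which makes the late cut of Cd74, was at -0.09 and did not pass (edgeR adjusted p = 0.387). Ctsl (-0.21, edgeR adjusted p = 0.0736), Ctsb (-0.14, 0.161), Ctsd (-0.24, 0.188) and Cst3 (-0.27, 0.0797) were below 0 without passing. The thiol reductase Ifi30 (0.10, 0.406) and Sppl2a, which clears the Cd74 stub (0.09, 0.505), did not pass and were the genes of this list above 0. With the offsets Ifi30 was at 0.20 and passed (edgeR adjusted p = 0.000931). Ctss was at -0.13 and did not (0.0549), though it passed with the replicate block added to the offsets (-0.13, 0.0273) and with Pdcd1f/f replicate 1 left out of them (-0.18, 0.000856).

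Among 12 genes for surface turnover and partners of class II, 2 were higher and 2 lower, beside 2.42% and 3.01% of all genes tested. Their median log2 fold change was -0.11. March1, the ubiquitin ligase that removes class II from the surface, fell from 1921 to 1451 normalized counts (log2 fold change of -0.40, standard error 0.07, edgeR adjusted p = 0.0108). Cd83, which counters March1, was at -0.06 (edgeR adjusted p = 0.601). Cd44, which forms a receptor with Cd74 for the cytokine MIF, rose from 65605 to 84658 (0.37, standard error 0.06, edgeR adjusted p = 0.00824). Of 5 tetraspanins, 3 did not pass (Cd37 at -0.13, Cd63 at -0.09 and Cd82 at -0.05), with Cd9 rising from 4977 to 6050 (0.28, standard error 0.06, edgeR adjusted p = 0.0192) and Cd81 falling from 4443 to 2926 (-0.60, standard error 0.08, edgeR adjusted p = 0.00268), the second under the threshold in all 20 alternatives. Without Pdcd1f/f replicate 2 or Pdcd1f/fLysMcre replicate 1 the edgeR adjusted p was 0.0551 and 0.0708 for March1 and 0.0709 and 0.0708 for Cd44, and that of Cd9 was 0.0676 to 0.128 without Pdcd1f/f replicates 2 or 3 or Pdcd1f/fLysMcre replicates 1 or 3.

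Neighbours of the members in the class II region and the class I pathway were set beside them. Of 7 tested neighbours 1 was lower, beside 3.01% of all genes tested, with a median of -0.19. This was Psmb9, an interferon-induced proteasome subunit, which fell from 2173 to 1676 normalized counts (log2 fold change of -0.37, standard error 0.09, edgeR adjusted p = 0.0441), while H2-Eb2 was at 0.12 (edgeR adjusted p = 0.861). Of 11 class I genes 1 was lower, beside 3.01% of all genes tested, with a median of -0.04. Nlrc5, the class I transactivator and a relative of Ciita, fell from 3330 to 2747 (-0.28, standard error 0.06, edgeR adjusted p = 0.0350), and B2m, the light chain of class I, was at 0.06 (edgeR adjusted p = 0.649). The calls of Psmb9 and Nlrc5 held without Pdcd1f/f replicate 1 and were lost without any other single library (edgeR adjusted p of 0.052 to 0.207 and 0.0876 to 0.199).

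Marker transcripts of macrophages, of neutrophils and of tumor and stroma moved with the genotype to some extent beside these values. Summed markers of dendritic cells, of B cells and of T and NK cells overlapped between the genotypes. In bulk RNA, fewer cells of a type and less RNA per cell cannot be told apart. Of 10 macrophage markers, 6 were lower in Pdcd1f/fLysMcre and none higher, beside 3.01% and 2.42% of all genes tested. Among the 6 were Adgre1, Csf1r, C1qa, C1qb and C1qc, and the median log2 fold change of the list was -0.34. Cd14 was above 0 (0.15, edgeR adjusted p = 0.163) with no overlap between the genotypes, as for 14.7% of all genes toward higher values. Summed normalized counts of the 10 neutrophil markers were 6584 to 6776 and 5501 to 5638, with Csf3r and Mmp8 lower and Ly6g at 0 to 3 counts per library. The log2 fold changes of S100a8 (0.23), S100a9 (0.12) and Cxcr2 (0.03) were above 0 and did not pass, and 3 of 6 tested were below 0. Those of the 10 dendritic cell markers, from cells rich in class II, were 819 to 905 and 724 to 865, with none of 7 tested past the threshold and 3 of 7 below 0. Zbtb46 (0.69, edgeR adjusted p = 0.120) and Flt3 (0.67, 0.137), which mark the lineage, were above 0, and Kmo (-0.55, 0.0513) and Fscn1 (-0.26, 0.378) below it. B cell markers summed to 350 to 394 and 302 to 356, T and NK cell markers to 75.6 to 89.4 and 65.7 to 76.2, and tumor and stroma markers to 4418 to 4622 and 3811 to 4232, with Col1a2 and Pecam1 lower. Of the 9 tumor and stroma markers tested 6 were below 0, with a median of -0.07, while Krt18 (0.25), Pdgfra (0.05) and Dcn (0.03) were above 0 without passing, and Lum, too low to test, had 0, 4 and 0 counts in Pdcd1f/f and 13, 17 and 8 in Pdcd1f/fLysMcre. The part of these shifts, and of the sex difference, in the value of H2-DMa was not tested.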

How the data were processed

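RNA-seq of 6 TAM libraries was analysed, 3 for each genotype as given by the labels. The members and the gene lists were chosen with earlier results of these data known. Raw counts for each Ensembl gene were deposited by the authors, made from stranded polyA libraries read as 42-nt pairs with FastQC 0.11.5, cutadapt 2.5, STAR 2.7.3a on GRCm38 and featureCounts (Subread 1.6.2). The strand setting and the handling of multi-mapped reads are not given in the sources used here. They also deposited a normalized signal for 16552 genes, the counts divided by 1 DESeq2 (1.24.0) size factor per library, between 0.895 and 1.08.

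Counts were tested with edgeR 4.0.16 in R 4.3.3 (filterByExpr with a minimum count of 10 and a minimum total of 15, TMM, robust glmQLFit, two-sided glmQLFTest), with Benjamini-Hochberg adjustment over 14469 genes and a threshold of 0.05. Standard errors came from the fold change and the F statistic. Ratios were compared by exact permutation over the 6 libraries. Gene models, lengths and GC content came from GENCODE M21 and promoters from RefSeq. All members were named, with each listed pathway gene past the threshold and a preset group of regulators, label checks and markers. Alternatives were RLE size factors, library size alone, other count filters, DESeq2 1.42.0, limma-trend (limma 3.58.1) on log2(value + 1), a replicate block, loess offsets (span 0.5) for GC content and length, each library left out, a threshold of 0.01, a fold test at 1.2 and the DMb paralogs summed. The offsets without Pdcd1f/f replicate 1, and levels by the length of all exons, were added after seeing the data. Scripts were tested on simulated data. A few listed genes are not reported here. No sample column was left out.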

Additional observations from a re-analysis of the deposited data

How the results depend on the processing

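The number of genes past the threshold was 786 and lay within 1.5 times of this under RLE size factors, library size alone, at least 10 counts in every library, Storey q-values, limma-trend, the replicate block and the summed DMb paralogs. It was 1951 with all genes of at least 1 count, 1524 with DESeq2 and Benjamini-Hochberg adjustment, 2614 with the offsets for GC content and length, 2736 with the offsets and the replicate block, 3253 with the offsets and Pdcd1f/f replicate 1 left out, 283 at a threshold of 0.01, 193 in the test against a fold change of 1.2, and 222 to 3181 when 1 library was left out, highest without Pdcd1f/f replicate 1. The count of class II genes past the threshold, 1 in edgeR, was 0 at 0.01, 0 against a fold change of 1.2 and 0 to 2 when 1 library was left out, and 1 in the other alternatives. H2-DMa stayed under the threshold in 14 of 20 alternatives, with adjusted p from 1.23e-05 to 0.376 and log2 fold changes between -0.62 and -0.39.

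Direction changed for genes that had not passed the test. The offsets gave 0.01 for H2-Ab1, 0.03 for Cd74, 0.09 for H2-DMb1, 0.06 for Spi1, -0.06 for Sppl2a and -0.01 for B2m, and with the replicate block added 0.01, 0.03, 0.09, 0.06, -0.06 and -0.01 for these genes and -0.01 for H2-Eb2. The offsets without Pdcd1f/f replicate 1 gave 0.09 for H2-DMb1, -0.06 for Nfyc, 0.03 for Spi1, -0.10 for Sppl2a, -0.04 for H2-Eb2 and -0.04 for B2m. Library size alone gave -0.01 for Nfyc. With 1 library left out, H2-Eb1 ran from -0.20 to 0.01, H2-DMb1 from -0.05 to 0.02, H2-Oa from -0.10 to 0.27, H2-Ob from -0.65 to 0.01, Nfyc from -0.07 to 0.07 and H2-Eb2 from -0.12 to 0.28. H2-Aa and Socs1, at 0.00, were given no direction. The cause was not tested.

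The replicate numbers did not pair the libraries. Deviations of same-numbered libraries correlated at -0.11, -0.435 and 0.682 across 9834 genes, and Pdcd1f/f replicate 1 was most like Pdcd1f/fLysMcre replicate 2 (0.685). The replicate block gave 1027 genes. It ended the call of Lgmn (adjusted p = 0.062) and no other call named among the members or pathway genes, and brought Irf8 under the threshold (0.0306). H2-Oa and H2-Ob had the fewest counts and the widest intervals among the members, and the cause of their spread was not tested.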
